A study of Drosophila melanogaster with 2 samples.

Results

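Chromatin immunoprecipitation followed by sequencing located the CG42726 protein in whole Drosophila melanogaster embryos of 0 to 24 hours, and the regions described here are the ones called from the pooled reads that no region of the conservative list overlapped. The 1 group of the series holds 2 biological replicates of a transgenic line that carries CG42726 fused to eGFP, precipitated with an antibody against GFP, and it has no second genotype or treatment. The labels do not say which promoter drives the transgene or whether the native gene is still present, and they give no count of embryos per replicate. Embryos of all these ages and all their tissues were mixed, so fewer cells with the protein at a site and less protein per cell cannot be told apart. The pooled list held 4044 regions, 4018 of them on 2L, 2R, 3L, 3R, 4 and X. A total of 1427 shared no base with any of the 2747 conservative regions on the same chromosomes, and 2591 shared at least 1 bp. A further 21 regions without overlap lay on unplaced sequences and were not used.

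CG42726 is a protein-coding gene of the fly known by its gene number. Fly promoters fall into broad kinds. Promoters of genes that most cells use often carry the DNA replication-related element (DRE, TATCGATA), which the factor DREF binds, or the overlapping core CGATAG that the insulator protein BEAF-32 binds, or Motif 1, which the factor M1BP binds. Promoters of developmental genes more often carry a TATA box, an Initiator or GAGA repeats. Transfer RNA genes are read by RNA polymerase III from an internal promoter whose B box lies inside the gene. In a list of ChIP-seq regions, the irreproducible discovery rate (IDR) measures how well a region keeps its rank between a pair of data sets: the conservative list compares the biological replicates, and the pooled list compares random splits of their joined reads.

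The windows below were read from the RefSeq sequence of the dm6 assembly, plus strand, 50 bp to either side of a summit, and give examples of pooled-only regions of each kind, chosen among those of high signal. All hold at most 30 annotated UTR bases. Capitals mark the named sequence only. The first set shows promoter regions with the BEAF-32 core, at the Plexin gene PlexB (chr4:43764-43864), at Paip2 (chr3R:12980968-12981068) and at SamDC (chr2L:10339386-10339486).
PlexB: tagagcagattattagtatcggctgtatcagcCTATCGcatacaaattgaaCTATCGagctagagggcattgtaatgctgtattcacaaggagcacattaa
Paip2: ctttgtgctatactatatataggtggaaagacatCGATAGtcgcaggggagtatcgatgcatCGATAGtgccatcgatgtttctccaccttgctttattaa
SamDC: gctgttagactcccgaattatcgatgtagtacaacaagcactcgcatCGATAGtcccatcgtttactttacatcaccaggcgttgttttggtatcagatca

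The second set shows promoter regions with other fixed sequences: the DRE at Stt3B (chr3R:25069628-25069728) and Trm7-32 (chr3R:17040599-17040699), the Motif 1 core GGTCACAC, here on the minus strand, at Mbs (chr3L:16051868-16051968), and Motif 7 (CANCNCTA), also on the minus strand, at hyd (chr3R:9725595-9725695). The B box (GTTCGANNC) is shown at tRNA:Thr-AGT-1-6 (chr3R:17624775-17624875), inside the transfer RNA gene and on the minus strand.
Stt3B: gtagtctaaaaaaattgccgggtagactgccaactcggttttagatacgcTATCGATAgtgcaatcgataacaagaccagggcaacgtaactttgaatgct
Trm7-32: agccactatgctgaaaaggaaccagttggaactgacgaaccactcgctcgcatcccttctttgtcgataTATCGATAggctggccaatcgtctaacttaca
Mbs: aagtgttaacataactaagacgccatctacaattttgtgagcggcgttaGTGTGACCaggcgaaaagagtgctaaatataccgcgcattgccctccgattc
hyd: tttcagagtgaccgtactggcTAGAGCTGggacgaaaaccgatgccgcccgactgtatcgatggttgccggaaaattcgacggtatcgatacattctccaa
tRNA:Thr-AGT-1-6: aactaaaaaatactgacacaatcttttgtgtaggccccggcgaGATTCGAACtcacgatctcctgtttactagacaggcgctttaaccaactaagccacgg

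The third set shows regions away from starts. Ist1 (chr3L:6755625-6755725) is a coding-exon region, Eaat2 (chr2L:740182-740282) an intron region and CG5273 (chrX:758922-759022) an intergenic region named by its nearest start. The window at CG5273 holds a BEAF-32 core, in capitals.
Ist1: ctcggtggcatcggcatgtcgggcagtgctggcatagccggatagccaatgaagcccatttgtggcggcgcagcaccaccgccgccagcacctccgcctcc
Eaat2: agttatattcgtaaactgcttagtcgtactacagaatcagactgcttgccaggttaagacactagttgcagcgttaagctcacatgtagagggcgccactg
CG5273: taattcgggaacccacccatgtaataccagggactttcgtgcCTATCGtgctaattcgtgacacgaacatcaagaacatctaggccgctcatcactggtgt

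The pooled-only regions were weak but not all weak. Their signal, the authors' value for each region, had a median of 64.0 (quartiles 58.4 and 71.7) and ran from 2.05 to 369, against a median of 106 (quartiles 80.8 and 151) in the pooled regions that overlapped the conservative list. The regions were chosen by IDR values that rest on these signals, so the signals are given as a description. A signal between 50 and 80 was found in 1108 of the 1427 regions (77.6%), and 74 exceeded 100. Only 56 exceeded the median of the overlapping regions, and 141 of the overlapping regions (5.44%) fell below the median of the pooled-only ones. The files give no read counts, so the depth is unknown.

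**Figure D1:**
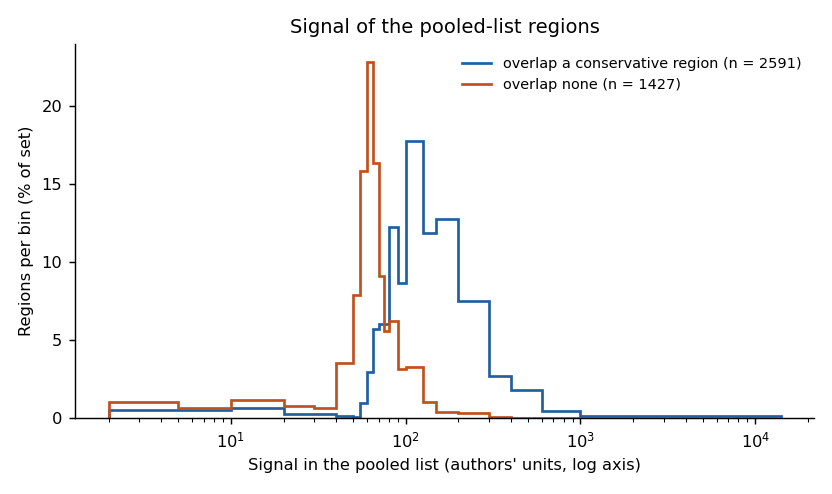
Signal of the pooled-list regions on a log axis, as the share of each set per bin (bins of unequal width), for the 1427 regions that overlap no conservative region and the 2591 that overlap one. The first set peaks between 60 and 65 and the second lies mostly above 80, with medians of 64.0 and 106.

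Nearly all pooled-only regions were 296 bp wide, and together they covered 422 kb. The 3 exceptions were 131 to 157 bp wide and were the 3 regions of highest signal, at ewg, PlexB and Nipsnap. A set of 57 regions overlapped a stronger region of the pooled ranked list and shared its matches in the replicates; their signals ran from 2.05 to 39.3, and the lowest signal of the other 1370 was 25.8. The median gap to the nearest conservative region was 9082 bp. The smallest gap was 83 bp, at tRNA:Tyr-GTA-1-5, and 187 regions (13.1%) lay within 1000 bp of one.

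The limit for both lists was an IDR of 0.01, which is 2 on the −log10 scale. The lowest −log10 IDR of a pooled-only region in the pooled comparison was 2.000283, at vri, and the highest value just outside the limit was 1.999999. In the comparison of the biological replicates, 1293 of the regions had an entry, with a median −log10 IDR of 1.52 and a highest value of 1.999734 at CG43736. The lowest value kept in the conservative list was 2.000158, at Edg78E. The other 134 regions (9.39%) had no entry in that comparison.

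Most regions were called in neither replicate alone, and those that were came mainly from replicate 1. Replicate 1's own list, of 2803 regions, held 545 of the 1427 regions (38.2%) and replicate 2's, of 1629, held 102 (7.15%). Both lists held 9, and neither held 789 (55.3%). In the conservative list the shares were 72.2% for replicate 1 and 52.2% for replicate 2, with 45.6% in both. The rule turns on how replicates compare, so these figures describe the choice and carry no test. Replicate 2's own ranked list had no entry for 159 of the regions and replicate 1's had none for 20.

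The median signal was 37.3 (quartiles 28.6 and 48.9) in replicate 1 and 24.96 (quartiles 21.3 and 30.8) in replicate 2. Of 1248 regions ranked in both replicates, 909 (72.8%) were higher in replicate 1, with a median log2 ratio of 0.59. The direction varied by location: the median log2 ratio of replicate 1 to replicate 2 was 0.82 at promoters, 0.39 in introns, 0.18 in coding exons and −0.14 between genes. The same order held in the conservative list, with 0.47 at promoters, 0.16 in introns, 0.03 in coding exons and 0.01 between genes.

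**Figure D2:**
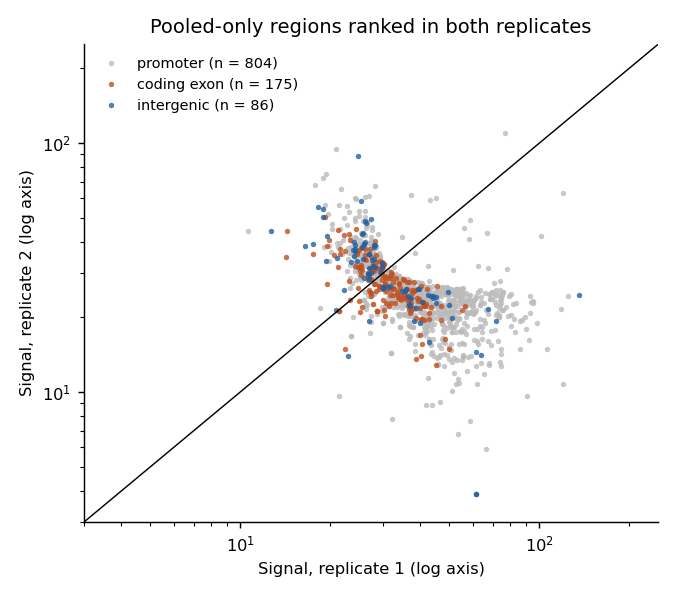
Signal of the pooled-only regions in replicate 1 (horizontal) against replicate 2 (vertical), both on log axes, for promoter (804), coding-exon (175) and intergenic (86) regions ranked in both; the line marks equal signal. The regions were chosen by IDR, which rests on these signals; promoter regions spread to the right of the line and intergenic ones lie to both sides.

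Pooled-only regions lay at promoters less often than conservative regions and in coding exons more often, and both differences depended on signal. Summits within 500 bp of an annotated start made up 933 of 1427 (65.4%, exact 95% interval 62.9 to 67.9) against 79.7% of the conservative list, a difference of −14.3 percentage points (95% interval −17.2 to −11.4, two-sided Fisher's exact test with Benjamini-Hochberg adjustment, adjusted p = 1.49e-22). Coding exons held 186 (13.03%) against 3.49%, a difference of 9.54 points (exact adjusted p = 2.18e-28). Introns held 169 (11.8%) against 7.46%, a difference of 4.38 points (exact adjusted p = 1.04e-05). Between genes the shares were 7.43% and 7.57%, a difference of −0.14 points with an interval of −1.77 to 1.60. These tests count regions and compare lists made from the same replicates, so they cover counting error only.

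By length, promoters as defined here make up 13.6% of the 6 chromosomes, coding exons outside them 13.7%, introns 39.5% and intergenic sequence 27.2%. The pooled-only regions therefore had a promoter share far above, and intron and intergenic shares far below, the share of sequence, while the coding-exon share stood near it. Untranslated and non-coding exons held 33 regions in all, and none of their 3 shares differed from the conservative list past the threshold.

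**Figure D3:**
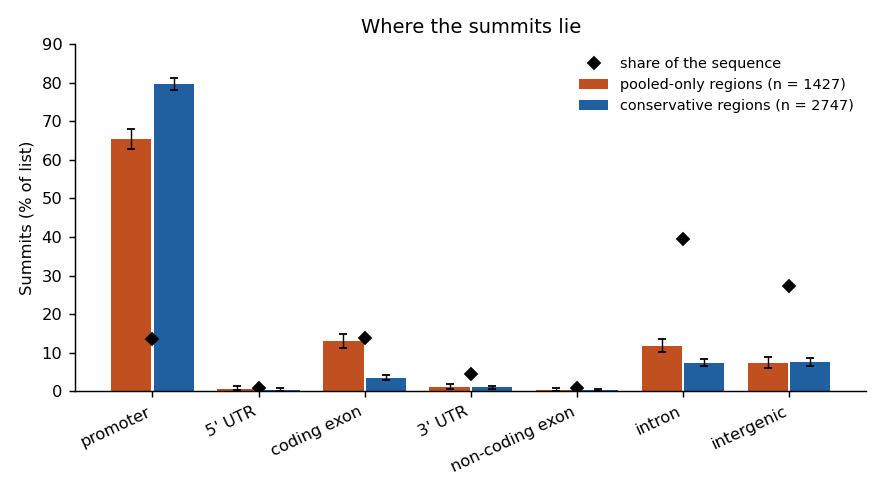
Share of summits in each of 7 location classes for the 1427 pooled-only and 2747 conservative regions, with exact 95% intervals, and the share of the sequence as diamonds. The promoter bar falls from 79.7% to 65.4% and the coding-exon bar rises from 3.49% to 13.03%.

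The promoter difference changed size and sign between ranges of signal. At a signal above 60 and up to 70, which holds 559 pooled-only and 224 overlapping regions of the pooled list, promoters took 341 (95% interval 56.8% to 65.1%) and 135 (53.5% to 66.7%) (Fisher's exact test, two-sided p = 0.872), and coding-exon shares were 15.2% and 11.2% (p = 0.172). Above 70 and up to 80 the pooled-only regions were more often at promoters, 76.7% of 210 against 63.8% of 312 (exact p = 0.00199). At signals up to 50 the order was the other way, 61.3% of 111 against 88.5% of 61 (exact p = 0.000182), and likewise above 50 and up to 60, 53.4% of 339 against 74.1% of 27 (exact p = 0.0444). The range up to 50 holds all 57 pooled-only regions that overlapped a stronger region of the pooled ranked list. Of the 2591 regions that overlap the conservative list, 63 also overlapped a stronger ranked region. Shares in this range were not computed without such regions. Above 80 and up to 100 the shares were 86.6% of 134 and 81.4% of 542 (exact p = 0.166). Above 100 the shares were 89.2% of 74 and 86.7% of 1425 (exact p = 0.723). Within the pooled-only set the promoter share rose from 53.4% at 50 to 60 to 89.2% above 100, and the coding-exon share fell from 20.4% to 0 of 74, which allows up to 4.86%. Among regions that replicate 1's list also held (545 pooled-only, 1984 conservative) the promoter difference was −2.203 points (exact p = 0.189), and among those of replicate 2's list (102 and 1435) it was −20.1 points (exact p = 1.48e-06). The coding-exon difference in the same subsets was 2.84 points (exact adjusted p = 0.000165) and 6.73 points (exact adjusted p = 0.000303). The intron difference was 1.26 points (exact adjusted p = 0.437) and 5.07 points (exact adjusted p = 0.0590), so its call was lost in both. The latter is no smaller than the 4.38 points over all regions, and rests on 102 pooled-only regions.

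**Figure D4:**
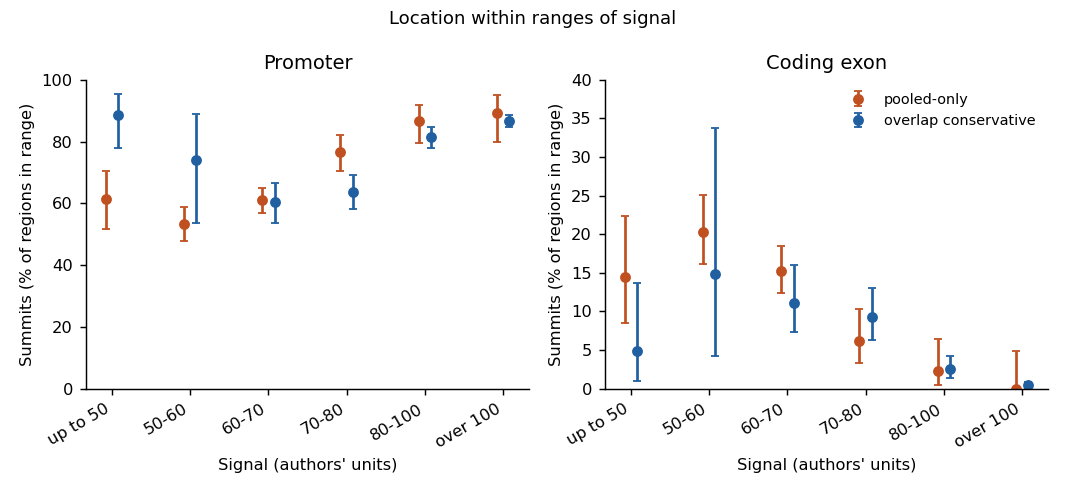
Share of summits at promoters (left) and in coding exons (right) within 6 ranges of signal, for pooled-only regions and for pooled regions that overlap the conservative list, with exact 95% intervals. At 60 to 70 promoters take 341 of 559 and 135 of 224 regions; pooled-only coding-exon shares fall from 20.4% at 50 to 60 to 0 above 100.

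Within promoters, pooled-only summits sat farther from the start. The median distance was 61 bp (quartiles 28 and 132) against 42 bp (22 and 73) in the conservative list. Within 100 bp of the start lay 642 of 933 (68.8%) against 83.6% (difference −14.8 points, adjusted p = 6.42e-19, Fisher's exact test). Summits upstream of the nearest start made up 44.7% against 60.5% (difference −15.8 points, exact adjusted p = 1.14e-15). Starts of more than 1 coding gene lay within 500 bp of 222 summits (23.8%) against 30.2% (exact adjusted p = 0.000413).

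Within 1 range of signal, above 60 and up to 70, none of these promoter differences passed the threshold. They were −3.21 points for summits within 100 bp, −12.3 points for upstream summits and −6.42 points for starts of more than 1 coding gene. Signal was not matched inside that range. It held 326 pooled-only regions at 60 to 65 and 233 at 65 to 70, against 76 and 148 overlapping ones. There, 67.2% of 341 pooled-only promoter summits and 70.4% of 135 overlapping ones lay within 100 bp of the start (exact adjusted p = 0.515). The upstream shares were 39.6% and 51.9% (95% interval of the difference −21.9 to −2.37, exact adjusted p = 0.0542). Starts of more than 1 coding gene lay near 18.8% and 25.2% (interval −15.2 to 1.53, exact adjusted p = 0.198), where the difference over all promoter summits was −6.37 points. Annotated transposable elements overlapped 17 of all pooled-only and 20 of all conservative regions (1.19% and 0.73%, exact adjusted p = 0.163).

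The coding-exon regions were GC-rich at their summits and weak in both replicates. The median GC content of the 186 summit windows was 58.4%, their flanks stood at 49.5%, and all coding exon sequence at 53.4%. The 96 conservative coding-exon regions had 59.4% and 48.5%. Their signals ran from 3.90 to 84.5, and 157 of the 186 (84.4%) were in neither replicate's list. The strongest was at CG5767, which had no ranked entry in replicate 1 and a signal of 48.3 in replicate 2. Ist1, whose yeast relative acts in endosomal sorting, had a pooled signal of 80.5, with 46.8 in replicate 1 and 22.2 in replicate 2. dap, the gene of the fly's p21/p27-like cell cycle inhibitor dacapo, had a pooled signal of 79.8, with 55.02 and 21.3. In sob, an odd-skipped family zinc finger gene, the order was reversed, with 19.2 in replicate 1 and 50.3 in replicate 2. For 88 of the 186 (47.3%), the gene that holds the exon also had a conservative summit within 1 kb of a start. Of all coding genes, 20.6% had one. The former is a share of regions and the latter a share of genes, so they are not like measures and were not tested.

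Some intron and intergenic regions had a higher signal in replicate 2 than in replicate 1. The intron region of Eaat2, which encodes a glial amino acid transporter, had a pooled signal of 114 with 22.7 in replicate 1 and 96.6 in replicate 2. The intron region of rl, the fly ERK kinase, had a pooled signal of 103 with 19.2 and 108. CG32196 gave 103 pooled, 23.5 and 84.5. Between genes, the region nearest to CG14762 gave 112 pooled, 24.7 and 88.8. At CG5273 the order was the opposite, with 155 pooled, 135 in replicate 1 and 24.4 in replicate 2.

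Core promoter sequences of the DRE type were found at pooled-only summits above the level of their flanks, and less often than in the conservative list. For the DRE and the BEAF-32 core, both calls held at promoter summits and neither held outside promoters. Each of 25 fixed sequences was sought on both strands in the 50 bp to each side of a summit, and in flanks that began 150 bp beyond that window. The DRE lay in 99 windows (6.94%), in 0.77% of flanks (exact McNemar test, adjusted p = 1.11e-18), in 12.6% of conservative windows (difference −5.62 points, Fisher's exact test, adjusted p = 7.87e-08) and in 4.48% of windows around the 19252 annotated starts of coding genes. The BEAF-32 core lay in 175 windows (12.3%), in 2.10% of flanks (exact adjusted p = 9.08e-28), in 26.9% of conservative windows (difference −14.6 points, adjusted p = 1.17e-27) and in 9.75% of coding starts. The sequences overlap: 71 of the 99 windows with the DRE also held the BEAF-32 core. At promoters the DRE lay in 10.1% of pooled-only and 15.3% of conservative windows (Fisher's exact adjusted p = 0.000714). The BEAF-32 core lay there in 16.9% and 32.8% (Fisher's exact adjusted p = 4.13e-19). Outside promoters the DRE shares were 1.01% and 1.79% (exact adjusted p = 0.654). Those of the BEAF-32 core were 3.44% and 3.76% (exact adjusted p = 0.988).

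Further sequences differed from the conservative list in the same direction over all summits and at promoters, and outside promoters none passed the threshold. Motif 7 lay in 6.03% of windows, 2.45% of flanks (McNemar exact adjusted p = 1.35e-05), 12.7% of conservative windows (Fisher adjusted p = 3.58e-11) and 7.66% of coding starts. The Motif 1 core lay in 2.31% of windows, 0.49% of flanks (exact adjusted p = 0.000211), 4.51% of conservative windows (adjusted p = 0.00122) and 4.68% of coding starts. The B box lay in 26 windows (1.82%) against 3.97% of the conservative list (exact adjusted p = 0.000693), and 0.77% of flanks (adjusted p = 0.0423). The core of sites of the insulator protein ZIPIC (AGGGCTG) lay in 1.19% against 3.49% (exact adjusted p = 2.93e-05), and its difference from the flanks (0.70%) did not pass the threshold (exact adjusted p = 0.364). Any of these 6 sequences lay in 310 pooled-only windows (21.7%) and in 42.6% of conservative ones.

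For the TATA box, the Initiator core and the GAGA repeat, found at developmental promoters, no difference over all summits passed the threshold in this window. With 100 bp to each side of the summit the TATA box differed by −3.40 points (exact adjusted p = 0.0193). Over all summits the TATA box TATAAA lay in 7.01% of pooled-only windows and 7.03% of conservative ones (difference −0.02 points, 95% interval −1.60 to 1.69). That value combines opposite differences. Outside promoters the shares were 3.64% and 8.77% (difference −5.12 points, Fisher's exact adjusted p = 0.0151). At promoters they were 8.79% and 6.58% (difference 2.21 points, Fisher's exact adjusted p = 0.0957). The TATA box was rarer at pooled-only summits than in their flanks, at 13.8% (exact McNemar test, adjusted p = 6.01e-09). The Initiator core TCAGT lay in 18.5% and 18.3% (difference 0.15 points, interval −2.29 to 2.68), against 13.8% of flanks (exact adjusted p = 0.00242). The GAGA repeat GAGAGAG lay in 1.82% of each list, with an interval of the difference from −0.81 to 0.95 points. The sequence ATTTGCAT of POU domain factors was the only 1 of the 25 found more often at pooled-only summits past the threshold, 19 windows (1.33%) against 0.47% (exact adjusted p = 0.0152), and its share in the flanks was 1.12%. That call was lost under 6 of 12 alternatives, with a difference of 0.52 points in a 61 bp window (exact adjusted p = 0.0505) and 0.75 points against the weaker conservative regions (exact adjusted p = 0.436). The E-box CAGCTG, a palindrome found at core promoters, lay in 7.50% of windows and 4.13% of flanks (exact McNemar test, adjusted p = 0.000692), with 7.24% in the conservative list. Its difference from the flanks was −0.98 points among regions of replicate 2's list and 5.14 points among regions of replicate 1's list. The homeodomain sequence TTAATTA differed between the lists by 0.76 points (exact adjusted p = 0.194). It gained a call under 2 of 12 alternatives, at 1.60 points for pooled-only regions above their median signal and 1.68 points among regions of replicate 1's list. It lay in 2.10% of windows and 3.71% of flanks (exact adjusted p = 0.0423), a call that 7 of 11 alternatives lost, and the B box lost its call against the flanks under 8 of 12.

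**Figure D5:**
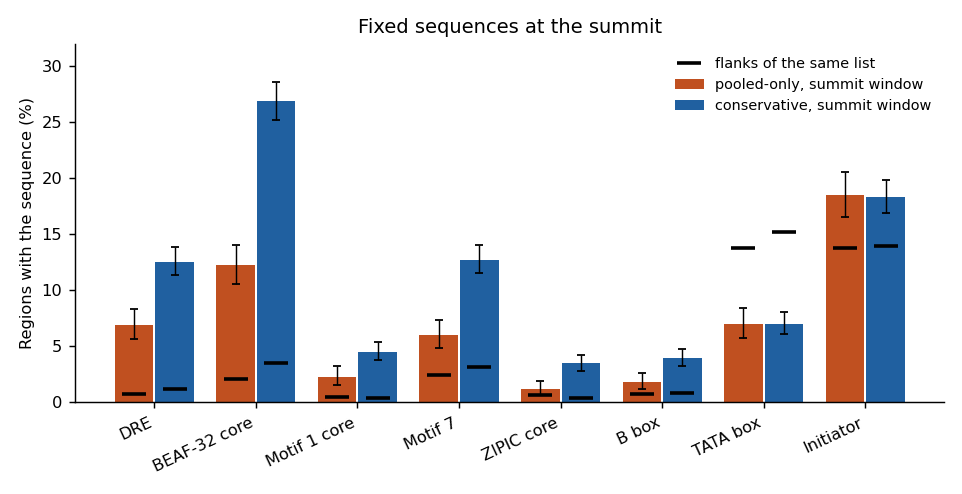
Share of regions that hold each of 8 fixed sequences within 50 bp of the summit, for pooled-only (1427) and conservative (2747) regions, with exact 95% intervals; black dashes mark the flanks of the same list. DRE, BEAF-32 core, Motif 1 core, Motif 7, ZIPIC core and B box are lower in the pooled-only list, while TATA box and Initiator bars stand level. Bars cover all summits, and the TATA box bars combine opposite differences at promoters and outside them.

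The sequence differences also varied with signal and between the replicate lists, and differences between these subsets were not tested. Against conservative regions below their own median signal, the DRE was 0.97 points higher in the pooled-only windows (exact adjusted p = 0.801) and the BEAF-32 core 0.54 points higher (adjusted p = 0.801), while the difference was −2.06 points for the Motif 1 core (exact adjusted p = 0.0370) and −1.79 points for the ZIPIC core (exact adjusted p = 0.0210). At signals above 60 and up to 70, none of the 25 sequences passed the threshold against overlapping pooled regions. Above 100, the DRE lay in 23 of 74 pooled-only windows (31.1%, exact interval 20.8 to 42.9) and in 18.7% of 1425 overlapping ones (interval 16.7 to 20.9), with no test run. The BEAF-32 core there lay in 39.2% and 41.1%. Among regions of replicate 1's list the DRE difference was −1.23 points (exact adjusted p = 0.663) and that of the Motif 1 core −1.28 points (exact adjusted p = 0.448), so both calls were lost. There the BEAF-32 core kept its call at −11.3 points (Fisher's exact adjusted p = 1.13e-05), and so did Motif 7 at −7.58 points (Fisher's exact adjusted p = 2.95e-05). Among regions of replicate 2's list the calls of Motif 1, the ZIPIC core, the B box and the POU sequence were lost. Their differences were −2.29, −3.41, −2.36 and 1.68 points, with exact adjusted p from 0.343 to 0.908. Over all regions they were −2.20, −2.30, −2.15 and 0.86 points. With only 102 pooled-only regions in that subset, the lost calls do not show smaller differences. The DRE, the BEAF-32 core and Motif 7 kept theirs, at −13.92, −32.94 and −13.85 points (Fisher's exact adjusted p = 0.000274, 3.82e-13 and 0.000274).

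Regions with the DRE had a higher median signal within the pooled-only set, given here as a description. Their median signal was 73.1 (quartiles 65.4 and 97.8) against 63.5 (58.2 and 70.7) for those without it. Of the 99, 94 lay at promoters, 79 (79.8%) were in replicate 1's list and 3 (3.03%) were in replicate 2's. The 17 regions with the ZIPIC core had a median signal of 63.1, and 4 were in replicate 1's list. Among the 102 regions in replicate 2's list, no fixed sequence differed between window and flanks past the threshold, and 7 sequences did among the 545 in replicate 1's list. The difference between these sets was not tested.

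Without any chosen sequence, 8-letter words gave the same letters. Of 1511 words found in at least 20 regions, 115 (7.61%) differed between summit window and flanks at an adjusted p of 0.05 (exact McNemar test). Of these, 45 were more frequent at the summit, 26 of them with CGAT inside, and 70 were less frequent. The most frequent gain was TATCGATA, 99 windows against 11 flanks. Next came ATCGATAG with 95 against 12 and ATATCGAT with 74 against 8. GGTCACAC, the Motif 1 core, lay in 33 windows and 7 flanks. The lower words were rich in A and T, such as AATAAAAA, with 23 windows against 60 flanks.

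Against the conservative list, 61 of 4500 words (1.36%) passed (Fisher's exact test), 53 of them less frequent in the pooled-only windows, and 35 of these held CGAT. ATCGATAG lay in 6.66% against 13.5% (exact adjusted p = 2.57e-08). The word CGATAGTA was found in 0.91% against 4.19% (exact adjusted p = 4.14e-07). The 8 words more frequent in pooled-only windows included GCAAAAAC, 2.10% against 0.47% (exact adjusted p = 0.000653), and CTGCCGCC, 1.75% against 0.40% (adjusted p = 0.00393).

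The pooled-only regions added genes to those of the conservative list. A pooled-only summit lay within 1 kb of a start of 1336 of 13945 protein-coding genes (9.58%). Of these, 280 also had a conservative summit and 1056 (7.57%) had none. Genes with a conservative summit numbered 2866 (20.6%), and genes with either numbered 3922 (28.1%). The gene lists that follow are described by counts beside these shares and were not tested.

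Among the Hox genes, which set segment identity along the body, 4 of 8 had a pooled-only summit and no conservative one, and 1 of 8 had a conservative one. Abd-B had a signal of 71.5, with 23.3 in replicate 1 and 41.8 in replicate 2, 48 bp from a start. abd-A had 70.8, with 51.9 and 20.1, at 165 bp. Ubx had 65.3, with 58.7 and 21.0, at 30 bp. Dfd had 51.7, with 27.8 and 36.9, at 159 bp. All were promoter summits, and Abd-B and Dfd were higher in replicate 2 while abd-A and Ubx were higher in replicate 1.

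Of the ecdysone and juvenile hormone response genes, 6 of 21 had a pooled-only summit, 5 of them without a conservative one. The BTB zinc finger gene ken had a signal of 119, with 95.3 in replicate 1 and 23.1 in replicate 2, 21 bp from its start. The nuclear receptor gene Hr78 had 79.4, with 52.9 and 24.4. usp, which encodes the partner of the ecdysone receptor, had 70.7, with 27.5 and 46.0. The replicates differed in which was higher among these genes.

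Of the Polycomb and Trithorax group genes, which keep developmental genes off or on, 8 of 29 had a pooled-only summit and 5 had only that. The highest were Psc, a subunit of a Polycomb repressive complex, at 93.7 with no ranked entry in replicate 2, Sfmbt at 83.0 and Caf1-55, a histone-binding subunit of several complexes, at 73.6. Among insulator and promoter-binding proteins, 6 of 21 had a pooled-only summit, and 4 of those also had a conservative one. The remaining ones were dwg, a zinc finger gene, at 105 with 80.7 in replicate 1 and 18.4 in replicate 2, and M1BP, whose product binds Motif 1, at 72.0 with 41.5 and 17.0.

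In each list of the translation and protein turnover machinery, more genes had a conservative summit than a pooled-only one. The same held for all coding genes, at 20.6% and 9.58%. Of 93 cytosolic ribosomal protein symbols, 25 had a pooled-only summit and 48 a conservative one, and 14 had only a pooled-only one. RpL30 had a signal of 88.5, with 37.3 in replicate 1 and 62.0 in replicate 2. RpL34b had 81.6, with 24.2 and 60.2. RpL24 had 78.7, with 55.6 and 13.8. For proteasome subunits the counts were 7 pooled-only and 15 conservative of 48, with Rpt6 at 78.2 the highest without a conservative summit. For translation initiation factors they were 6 and 17 of 44, led by eIF4G1 at 102. Of 73 mitochondrial ribosomal proteins, 7 (9.59%, near the share of all coding genes) had a pooled-only summit and 25 a conservative one.

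Chaperone genes had 6 pooled-only and 8 conservative of 34, and the chaperonin subunit gene CCT1 led at 108, with 79.0 in replicate 1 and 24.3 in replicate 2. Cell cycle and replication genes had 5 of 31 with a pooled-only summit, none of which had a conservative one, led by the cyclin gene CycD at 99.3. Segmentation genes had 4 of 24, led by ptc, the Hedgehog receptor gene, at 83.5 with 67.2 in replicate 1 and 20.6 in replicate 2. Chromatin remodelling and histone modifying genes had 2 of 27 against 13 with a conservative summit, and signalling ligands and receptors 4 of 29 against 14. Neurogenesis genes had 1 of 25, muscle genes 2 of 18, and germline and piRNA genes 2 of 20.

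Chemoreceptor genes had 0 of 179, cuticle protein genes 1 of 98, cytochrome P450 genes 4 of 83 and immune effector genes 3 of 46, all under the 9.58% of all coding genes. A conservative summit lay near 5, 5, 3 and 2 genes of these lists, also under the 20.6% of all coding genes. The highest of the immune list, AttD at 110, lay 443 bp from a summit that was nearest to tRNA:Thr-AGT-1-6.

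Transfer RNA genes belonged mainly to the conservative list. A pooled-only summit lay within 1 kb of 49 of 290 (16.9%), a conservative one of 178 (61.4%), and 26 had only the former. Since these genes are clustered, the 49 came from 25 regions. Reads from near-identical copies could be split between them, and how they were counted is not given in the sources used here. tRNA:Phe-GAA-1-5 had the highest signal at 154, with 101.4 in replicate 1 and 42.4 in replicate 2. tRNA:Thr-AGT-1-6, shown above with its B box, had 110, with 89.9 and 17.8. Small nucleolar RNA genes had 16 of 269 from 14 regions, 3 of them beside the Uhg1 host gene start. microRNA genes had 12 of 260 (4.62%) and long non-coding RNA genes 72 of 2447 (2.94%), near the 3.25% of all 3261 genes annotated as ncRNA, which include both. The 3 of 32 small nuclear RNA genes came from 1 region and all had a conservative summit too.

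The 20 regions of highest signal were found in replicate 1. All 20 were in replicate 1's list, 3 were in replicate 2's, and 15 had no ranked entry in replicate 2. The strongest lay 22 bp from a start of ewg, which encodes a transcription factor needed for flight muscle and neurons, with a pooled signal of 369 and 218 in replicate 1. PlexB, a semaphorin receptor gene, followed with 287 and 141. Nipsnap, whose window held the DRE, had 273 and 177. None of the 3 had a ranked entry in replicate 2, and 16 of the 20 summits lay at promoters.

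The next were Asator, a kinase gene of the tau-tubulin kinase family, with 242 pooled and 138 in replicate 1, and Df31, a gene of a chromatin-associated histone chaperone, with 232 and 158. The adducin gene hts had 207 and 153. step, an Arf exchange factor gene, had 199 and 90.3. Stt3B, a catalytic subunit gene of oligosaccharyltransferase, had 176 and 108. Trm7-32, a tRNA methyltransferase gene, had 163 and 117. None of these 6 had an entry in replicate 2 either.

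In 5 of the 20 both replicates gave a value. Besides CG5273 and tRNA:Phe-GAA-1-5, given above, they were Dpm3, Paip2 and shg. Dpm3, which encodes a part of the dolichol phosphate mannose synthase, was the only one higher in replicate 2, with 76.7 in replicate 1 and 109 in replicate 2 for a pooled signal of 152. Its between-replicate −log10 IDR was 1.99, just under the limit. Paip2, an inhibitor of the poly(A)-binding protein, had 120 and 63.2. shg, the E-cadherin gene, had 124 and 24.3. SamDC, the snoRNA host gene Uhg1, scyl, Cul2 and psq had pooled signals from 139 to 145, and these 5 lacked an entry in replicate 2.

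Regions held by replicate 2's list and not by replicate 1's all lay outside the 20 of highest signal. The highest was at rno, with a pooled signal of 130, 20.9 in replicate 1 and 94.9 in replicate 2, 487 bp from the nearest start and 613 bp from a conservative region. Promoter summits among the highest of these included drn, with 43.2 and 59.3, and pita, which encodes a zinc finger protein with insulator function, with 45.2 and 60.1.

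The small chromosome 4 held 7 pooled-only regions and 3 conservative ones. No chromosome's share differed between the lists past the threshold, and the chromosome 4 shares were 0.49% and 0.11% (difference 0.38 points, Fisher's exact adjusted p = 0.135). Among regions that replicate 1's list also held, the chromosome 4 difference was 0.92 points (exact adjusted p = 0.00275), and among pooled-only regions above their median signal it was 0.73 points (adjusted p = 0.0213). The 7 regions were at PlexB, at Asator in an intron (242) and at a start (111), at the ATP synthase gene ATPsynbeta (113), at eIF4G1 (102), and at a pair of intergenic sites nearest to Sox102F (66.5 and 53.0). In replicate 1 their signals ran from 25.2 at the latter Sox102F site to 141 at PlexB. Only the former Sox102F site was ranked in replicate 2, with 25.9 against 39.2 in replicate 1. The 3 conservative regions had a median of 30.6 in replicate 1 and 38.2 in replicate 2 and were in neither replicate's list.

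At the tagged gene itself, CG42726 (3R, 15348048 to 15350391), 1 pooled-only region lay within 5 kb. It spanned 15346001 to 15346296 at the promoter of Surf4, with a signal of 67.4, 58.3 in replicate 1 and 20.7 in replicate 2, and its window held the DRE. At Kr-h1, a juvenile hormone response gene on 2L, no pooled-only region lay within 5 kb. The nearest lay at stai (6109605 to 6109900), with a signal of 57.3.

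A few gene bodies held several pooled-only summits. HmgD, RasGAP1, atos and CG46385 held 4 each, 9 genes held 3 and 96 held 2. RasGAP1, a GTPase-activating protein gene, had 59.1 and 65.7 in an intron and 64.99 and 68.0 at a promoter, and no conservative summit. In HmgD, an HMG box chromatin protein gene, the 4 signals were 43.7, 6.18, 61.6 and 73.6, and the first 2 came from overlapping regions that share the replicate signals. atos had 56.8 and 21.1 in coding exon, again overlapping, 82.2 in an intron and 80.6 at a promoter 43 bp from the start. CG46385 had 52.7 at a promoter, then 68.8, 72.2 and 2.44 in an intron, and its regions of 72.2 and 2.44 overlap and share the replicate signals. CG2656 had 54.9 and 60.1 at promoters and 58.3 in a coding exon, the last 2 nearest to starts of gfzf.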

How the data were processed

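The authors deposited 8 peak lists on dm6, per the labels: ranked and thresholded lists for each replicate, and ranked, thresholded and conservative lists of both replicates. For the ranked lists of both replicates the labels name no sample. The one that shared most regions with the pooled list at the IDR limit was taken as that of the pooled reads. The other was taken as the comparison between replicates. Their signal (scaling not stated), score and −log10 IDR columns are the authors' own values, per the deposited files. For the aligner and the peak caller, names and versions were not given in the sources used here, and the control that the records name was not analysed here. The files hold no counts and depth is unknown.

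Members were pooled thresholded regions with no base in common with a conservative region. A replicate's signal is that of the strongest overlapping region in its own ranked list. Genes came from Ensembl release 115 (17413 of 17415 genes have the same ends in RefSeq). Where classes overlapped, a summit counted as promoter first, then as UTR of the 5' end, coding exon, UTR of the 3' end, other exon, intron and last intergenic. Flanks were 51 and 50 bp, which give words somewhat fewer start positions than the 101 bp window. Shares were compared by two-sided Fisher's exact or exact McNemar tests (SciPy 1.17.1, Python 3.11.15), intervals are Clopper-Pearson and, for differences, Newcombe (statsmodels 0.14.6), and adjustment is Benjamini-Hochberg at 0.05. The functions were tested on simulated regions. Named genes are those nearest to the 20 strongest members, up to 3 per list by signal without a conservative summit, the 5 genes with most member summits, CG42726 and Kr-h1; further regions, in coding exons, introns, between genes, on chromosome 4 and in replicate 2's list, were named by signal after their values were seen. A gene among those nearest to the strongest members is not reported here. Members and lists were chosen with earlier results of these data known. With 1 group, no conditions were compared and no sample could be tested as an outlier.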

Additional observations from a re-analysis of the deposited data

How the results depend on the processing

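The lower promoter share kept its direction and adjusted call under 10 of 13 alternatives, between −20.1 and −4.90 points. With members at or above their median score it was −3.85 points (Fisher's exact p = 0.0270, adjusted p = 0.0946). It reversed to 0.73 points at signals above 60 and up to 70 in both sets, a setting chosen after seeing the data. Leaving out a replicate here means keeping only regions that the other replicate's list also held. No regions were called anew from a single replicate. This gave −20.1 points without replicate 1 and −2.203 points without replicate 2. The latter missed the threshold (Fisher's exact p = 0.189). The number of location classes that differed, 3, went to 1 with members at or above their median score and to 0 in the 60 to 70 range, and leaving out a replicate gave 1 to 3. The intergenic difference ran from −2.33 points without replicate 2 to 9.001 without replicate 1. In the 60 to 70 range introns turned to −3.10 points. The number of chromosomes that differed, 0, was 1 with members above their median signal and 0 to 1 when leaving out a replicate.

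The number of fixed sequences that differed between the lists, 7, was 2 against conservative regions below their median, 3 with members at or above their median score and 0 in the 60 to 70 range, and leaving out a replicate gave 3 to 6. Reversals against the weaker conservative regions were 0.97 points for the DRE and 0.54 for the BEAF-32 core. In the 60 to 70 range they were 2.24 points for the DRE, 1.71 for the BEAF-32 core, 1.62 for Motif 7 and 0.18 for the B box. The number that differed between window and flanks, 9, was 2 with the letters in reversed order, where the DRE stood at −0.0701 points, and 0 to 7 when leaving out a replicate; the E-box CAGCTG stood at −0.98 points without replicate 1 and 5.14 without replicate 2. Words of 7 letters gave 177 calls against flanks where 8 letters gave 115. The causes of these changes were not tested. Without replicate 1, 102 of the 1427 members remained, and without replicate 2, 545. Of 744 further comparisons for single classes, chromosomes and sequences, 663 stayed on their side of the threshold with no called direction reversed, 58 lost the call, 12 gained one and 11 reversed. No paired analysis was possible because there is 1 group. Precision is limited by the number of regions, and the depth is unknown.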
